A study of Mus musculus with 24 samples.

Results

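The proteins of the Slc25 family carry metabolites across the inner mitochondrial membrane, and their transcripts are described here in liver and whole brain of mice fed diets that differed in selenium. The members were all genes of the table named Slc25a followed by a number that averaged 5 or more normalized reads over the 12 liver or the 12 brain libraries. That rule took 42 of 46 such symbols, among 21894 genes in all. The 42 members passed the minimum in liver and 41 of them also in brain. The 4 symbols outside it averaged at most 3.24 (Slc25a43 in brain; 0.836 in liver), with Slc25a2 at 2.38 and 1.97 and Slc25a41 at 0 and 2.31 in liver and brain, and Slc25a31 at 2.42 in brain. By the higher of both tissues, the members nearest the minimum were Slc25a24, at 39.3 and 40.4 in liver and brain, and Slc25a35, at 27.3 and 72.1. Animals were C57BL/6J males that ate normal chow up to the age of 8 weeks and then, for 5 weeks, a diet with selenium at 0 ppm, 0.1 ppm, 0.4 ppm or 2.25 ppm. Total RNA of each tissue was sequenced in 3 libraries per diet, which gives 8 groups and 24 libraries. The labels do not say whether the 3 libraries of a group came from separate animals, so the p-values rest on the spread of these libraries alone, which may be technical.

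Most Slc25 carriers are exchangers that swap a substrate of the matrix for one of the intermembrane space, and they share a fold built of repeated membrane segments. They link cytosol and matrix in oxidative phosphorylation (ADP for ATP, and phosphate), in the malate-aspartate shuttle, in the export of citrate for fatty acid synthesis, in the urea cycle, in the entry of acylcarnitines and in the supply of cofactors such as coenzyme A and NAD. Selenium is built into selenoproteins, among them peroxidases that use glutathione, and the liver is the main organ that takes it up and exports it. The diet without added selenium is called 0 ppm below, and the other 3 diets are called supplemented.

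The values are normalized reads, that is, reads per gene divided by a single factor for each library. Depth on genes was 11.5 to 18.4 M reads per liver library and 12.9 to 17.8 M per brain library. In liver a count of 3 reads equals 3.12 to 5.32 normalized reads, and in brain 1.75 to 2.34, and such limits cover counting error only. The tissue labels matched their markers, since 5 hepatocyte genes summed to 1079630 to 1876890 normalized reads in liver against 9.13 to 105 in brain, and 4 neuron genes to 140 to 562 in liver against 39273 to 46501 in brain. In bulk RNA, fewer cells of a type and less RNA per cell cannot be told apart. The library kit marks strand, but whether the counting used it is not given in the sources used here, and exons of 11 members overlap another gene of the table on the opposite strand (among them Slc25a10, Slc25a11, Slc25a18, Slc25a21, Slc25a23, Slc25a25, Slc25a26, Slc25a33, Slc25a35 and Slc25a46). Libraries within a group are called a, b and c in the order of the columns, letters that pair nothing. Brain libraries 0 ppm a and 0.1 ppm b stood apart in the pituitary genes Gh, Prl and Pomc, which summed to 88079 and 52274 normalized reads there, against 17.4 to 540 in the other 10 brain libraries.

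Promoter sequence is shown for 4 members whose liver levels differed with diet, picked as examples after their values were seen. Slc25a30, Slc25a13 and Slc25a48 differed at 0 ppm and Slc25a33 at 2.25 ppm, where Slc25a22, Slc25a44 and Slc25a51 differed about as clearly. Each line gives the 250 bases before the start of transcription, 5′ to 3′ on the gene's own strand, from RefSeq on GRCm38.p6. Capitals mark a CCAAT box (CCAAT, or ATTGG on the other strand) or an E-box (CACGTG).
Slc25a30, chr14:75787038-75787287, minus strand: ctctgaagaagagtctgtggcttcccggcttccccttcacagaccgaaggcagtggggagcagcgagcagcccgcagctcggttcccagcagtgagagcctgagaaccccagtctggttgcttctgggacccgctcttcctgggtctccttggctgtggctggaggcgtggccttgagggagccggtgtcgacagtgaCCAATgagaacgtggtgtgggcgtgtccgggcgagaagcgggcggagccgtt
Slc25a13, chr6:6217174-6217423, minus strand: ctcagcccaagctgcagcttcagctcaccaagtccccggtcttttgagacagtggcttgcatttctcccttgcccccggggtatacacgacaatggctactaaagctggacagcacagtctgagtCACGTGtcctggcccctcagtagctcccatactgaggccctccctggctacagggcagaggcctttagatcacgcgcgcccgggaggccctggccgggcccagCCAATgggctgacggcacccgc
Slc25a48, chr13:56438105-56438354, plus strand: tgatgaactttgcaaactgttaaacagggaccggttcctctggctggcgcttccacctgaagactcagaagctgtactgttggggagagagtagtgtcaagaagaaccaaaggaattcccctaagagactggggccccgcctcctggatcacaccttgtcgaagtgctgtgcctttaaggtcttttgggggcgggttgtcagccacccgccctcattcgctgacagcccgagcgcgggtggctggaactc
Slc25a33, chr4:149774268-149774517, minus strand: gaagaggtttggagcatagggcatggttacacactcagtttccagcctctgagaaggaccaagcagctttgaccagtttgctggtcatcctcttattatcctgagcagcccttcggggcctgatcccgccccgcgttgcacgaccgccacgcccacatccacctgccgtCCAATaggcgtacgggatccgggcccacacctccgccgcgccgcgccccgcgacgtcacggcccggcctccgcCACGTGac
In these windows Slc25a30 has a CCAAT box 52 bases before the start, written -52. Slc25a13 has an E-box at -125 and a CCAAT box at -22. Slc25a33 has a CCAAT box at -81 and an E-box at -8. Slc25a48 has neither. The windows searched ran from 250 bases before to 50 bases after each start, on both strands, and the letters of none of the 4 motifs are contained in those of another. Over the family, 35 genes had 45 such promoters in RefSeq, of which 22 held a CCAAT box (48.889%) and 8 an E-box (17.778%), against 37.408% and 7.15% of all 32851 promoters. By gene, 19 and 7 of the 35 held them, and a share by gene is not given for all promoters. Overlapping windows counted the E-box of Slc25a14 and a CCAAT box of Slc25a23 more than once. The 35 include Slc25a31, which holds an E-box, and Slc25a43, which holds none of the 4 motifs, and neither is a member. A D-box (TTATGTAA) and an NRF1 site were in 0 of the 45, against 0.938% and 0.971% of all promoters. These are matches of letters only.

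In liver, 20 of the 42 members passed the test in at least 1 of 5 diet comparisons, and 22 passed in none. The share of all genes that passed in at least 1 of these 5 is not given here, so the count of 20 has no background. Tests were made with limma on log2(value + 1) over the 12 liver libraries, with Benjamini-Hochberg adjustment over 18945 genes and a threshold of 0.05, and a member that passed is written as higher, lower, risen or fallen. At 0 ppm compared with the mean of the 3 supplemented diets, 11 members passed (26.2%), while 6.61% of all genes tested passed. The genes tested needed only a value of 1 in 3 libraries, while members averaged 5 or more. The background thus holds more genes with few reads, and here and below the shares are not matched for level. Of the 11, 3 were higher and 8 lower, against 2.2% of all genes higher and 4.41% lower. The member median was -0.16 on the log2 scale, against 0.00 for all genes. Against 0.1 ppm alone, 0 ppm again gave 11 members (26.2%; 2 higher, 9 lower), with a background of 6.13% (1.82% higher, 4.31% lower) and a member median of -0.21. At 0.4 ppm against 0.1 ppm, 3 members were lower and 0 higher, with a background of 1.49% (0.549% higher, 0.94% lower). At 2.25 ppm against 0.1 ppm, 10 members passed (23.8%; 3 higher, 7 lower), with a background of 7.85% (4.23% higher, 3.62% lower). Any difference among the 4 diets was called for 14 members (33.3%), against 10.9% of all genes. Contrasts with 0.1 ppm share its 3 libraries, so a member that was high or low there appears in each of them. Counts moved when 1 library was left out, and the counts over all genes in those fits are not given here. For 0 ppm against the supplemented diets 4 members passed without 0 ppm a and 7 without 0 ppm c or 0.1 ppm c. At 0 ppm against 0.1 ppm 7 passed without 0 ppm a, 0 ppm c or 0.1 ppm b and 6 without 0.1 ppm c. For 2.25 ppm against 0.1 ppm 4 passed without 0.1 ppm b or 2.25 ppm c. At 0.4 ppm against 0.1 ppm 0 passed without any 1 of the 6 libraries of those diets, and 1 without 0 ppm a or 2.25 ppm a or c. The F test gave 8 without 0.1 ppm b and 9 without 0 ppm a or 0.1 ppm c.

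Scaling moved the balance of directions at 0 ppm. With each library scaled to its own total, 4 members were higher and 4 lower against the supplemented diets (3 and 8 as deposited). All genes called then rose to 1458, from 1252 as deposited, and 31.9% of them were lower, against 66.8% as deposited. Quantile normalization gave 3 higher and 5 lower (54.9% of all 1205 genes called were lower), and edgeR 4 higher and 7 lower (53.0% of 1372). Against 0.1 ppm the members split 3 higher and 6 lower with total scaling and 3 and 8 with quantile normalization (2 and 9 as deposited). Of all genes called there, 37.5% of 1214 and 58.7% of 1079 were lower, against 70.3% of 1161 as deposited. At 0.4 ppm against 0.1 ppm the members split 1 and 1 with total scaling (0 and 3 as deposited). Of all genes called there, 47.3% of 241 were lower, against 63.1% of 282 as deposited. The calls that passed under every alternative and in every fit without 1 library were those of Slc25a30 and Slc25a13 and Slc25a48 at 0 ppm against the supplemented diets, of Slc25a13, Slc25a48 and Slc25a51 at 0 ppm against 0.1 ppm, and of Slc25a22, Slc25a33, Slc25a44 and Slc25a51 at 2.25 ppm against 0.1 ppm. The heat map of log2 changes lays out 41 members by role.

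**Figure D1:**
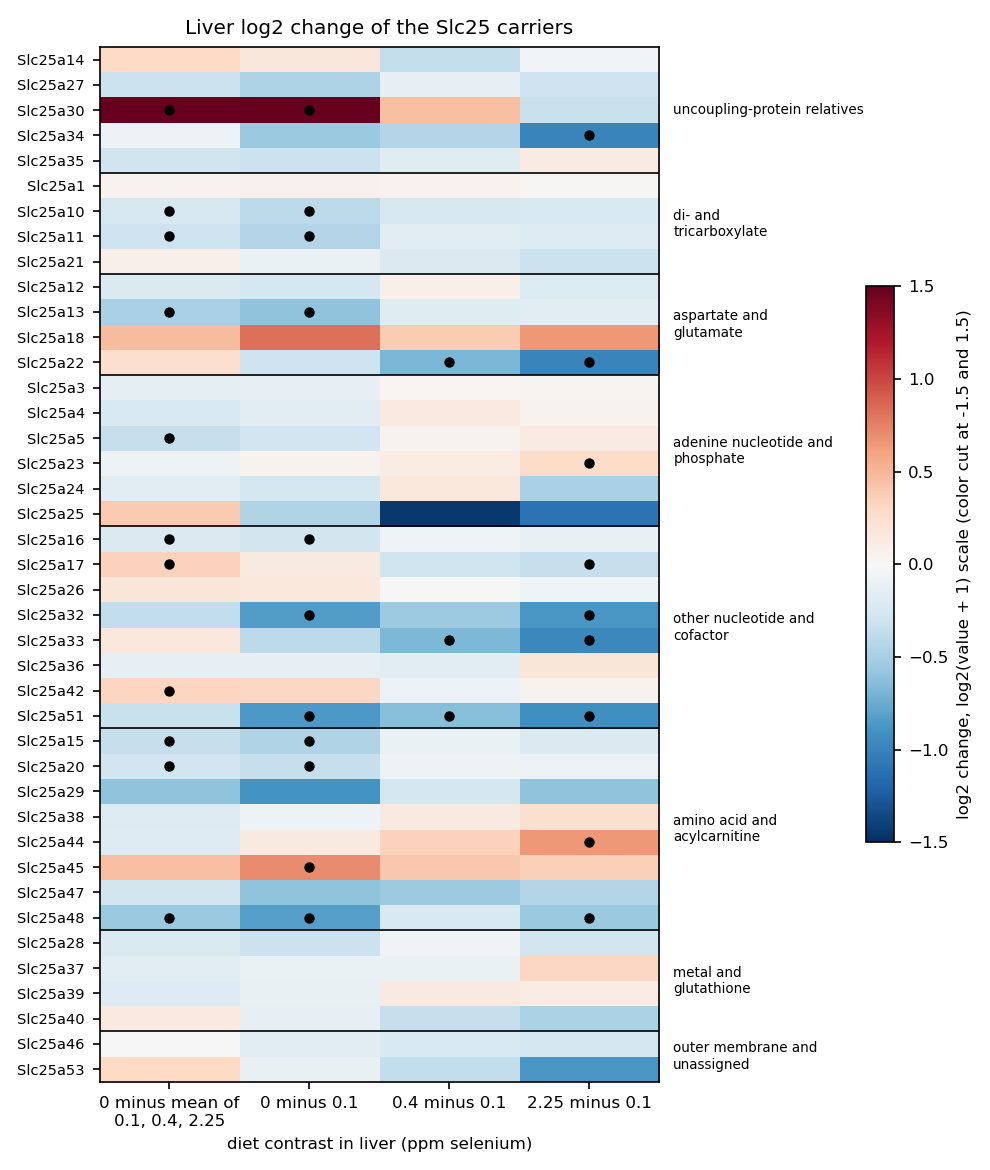
Log2 changes in liver of 41 Slc25 members (rows, grouped by role) in 4 diet contrasts (columns), from limma on log2(normalized reads + 1). Dots mark an adjusted p under 0.05, and the colour scale ends at 1.5, which only Slc25a30 exceeds. Most dotted cells are in the direction of lower levels at 0 ppm or at 2.25 ppm.

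Slc25a30 had the largest difference of the family at 0 ppm. It encodes a relative of the uncoupling proteins, also known as kidney mitochondrial carrier protein 1, and the human protein carries sulfur-containing and other inorganic anions (chr14:75760117-75787037, minus strand on GRCm38, exon length 4571 bases). Its liver values were 981, 657 and 1367 normalized reads at 0 ppm, 228, 243 and 216 at 0.1 ppm, 329, 193 and 479 at 0.4 ppm and 188, 99.3 and 318 at 2.25 ppm. Every 0 ppm library was above every library of the other diets, the lowest at 657 against a highest of 479, and the 3 supplemented groups overlapped. The 0 ppm livers averaged 1002 ± 356 normalized reads, against 229 ± 13.7 at 0.1 ppm, 334 ± 143 at 0.4 ppm and 202 ± 110.0 at 2.25 ppm (SD, n = 3 each). The rise over the supplemented diets was 4.07-fold (log2 change 2.03 ± 0.31 SE, adjusted p = 0.00157 by limma, 95% interval 1.37 to 2.68). It passed in each of 12 fits that left out 1 library. Slc25a30 was singled out for its large liver change in these same data, so its tests are not independent of that choice. Against 0.1 ppm alone the rise was 4.18-fold (log2 change 2.06 ± 0.38 SE, adjusted p = 0.00572), a call that was lost when genes with low values were kept or when the variance was not allowed to follow the mean (adjusted p up to 0.0527). Within the supplemented diets no contrast passed. The log2 change was 0.45 at 0.4 ppm against 0.1 ppm (interval -0.36 to 1.26, adjusted p = 0.62) and -0.33 at 2.25 ppm against 0.1 ppm (interval -1.14 to 0.47, adjusted p = 0.682). The libraries spread widely at 2.25 ppm, from 99.3 to 318, and little at 0.1 ppm, from 216 to 243. Over all 12 livers, with the difference between diets included, the coefficient of variation was 86.5%, against 13.7% over the brains.

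**Figure D2:**
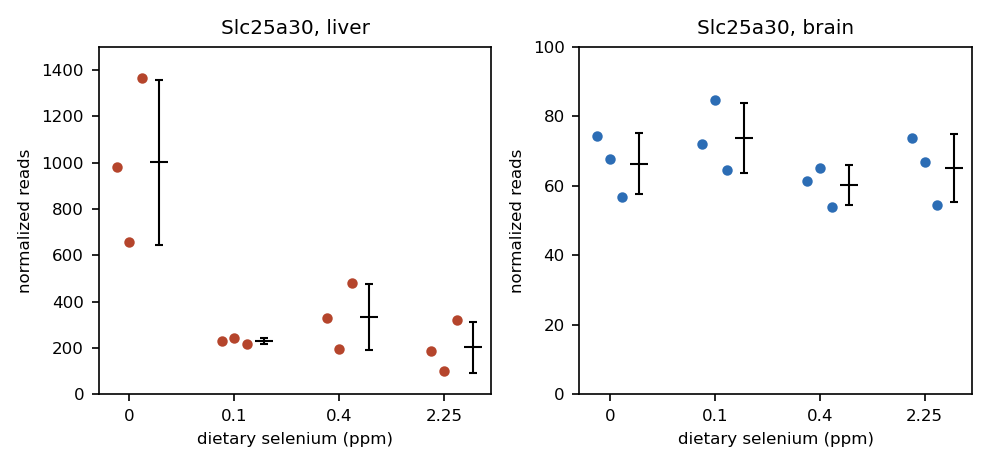
Normalized reads of Slc25a30 (y axis, separate scales) by dietary selenium in ppm (x axis) in liver (left) and brain (right). Points are libraries and bars the mean ± SD of 3. The 3 liver libraries at 0 ppm lie at 657 to 1367, above the other 9, and the brain libraries lie between 53.9 and 84.7 on every diet.

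Of the other uncoupling-protein relatives, Slc25a14 and Slc25a27 (known as UCP5 and UCP4 and best known from neurons), Slc25a35 and Slc25a34, none passed at 0 ppm. Slc25a34 was lower at 2.25 ppm against 0.1 ppm (log2 change -0.99 ± 0.28 SE, adjusted p = 0.0489). Its liver values were 117, 126 and 75.5 normalized reads at 0 ppm, 102, 146 and 243 at 0.1 ppm, 118, 122 and 102 at 0.4 ppm and 99.6, 76.3 and 60.0 at 2.25 ppm. The 2.25 ppm libraries were all below the 0.1 ppm libraries, of which library c was the highest, and the call was lost in 8 of the 12 fits without 1 library (adjusted p up to 0.174), 4 keeping it. Slc25a27 was low in liver, with 12.5 to 46.9 normalized reads.

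Among the 4 carriers of di- and tricarboxylates, 2 were lower at 0 ppm. Slc25a10, which exchanges malate and succinate for phosphate, had 3053, 3435 and 3037 normalized reads at 0 ppm, 3977, 4116 and 4435 at 0.1 ppm, 3344, 3704 and 3578 at 0.4 ppm and 3361, 3752 and 3589 at 2.25 ppm. The 0.1 ppm libraries were the highest, and the 0 ppm libraries a and c were below all others. Slc25a11, which exchanges oxoglutarate for malate and is part of the malate-aspartate shuttle, had 1176, 1276 and 1278 normalized reads at 0 ppm, 1500.3, 1832 and 1722 at 0.1 ppm, 1517, 1493 and 1497 at 0.4 ppm and 1478, 1551 and 1353 at 2.25 ppm. Its 3 libraries at 0 ppm were the lowest of the 12. Against the supplemented diets the log2 change was -0.31 ± 0.07 SE for Slc25a11 (adjusted p = 0.0125 by limma) and -0.24 ± 0.06 SE for Slc25a10 (adjusted p = 0.0341). Against 0.1 ppm both passed in all 12 fits without 1 library, at -0.43 for Slc25a11 (adjusted p = 0.00705) and -0.40 for Slc25a10 (adjusted p = 0.00785). Both missed the threshold without the mean-variance trend and with only the libraries compared (adjusted p up to 0.054 for Slc25a11 and 0.0548 for Slc25a10). Against the supplemented diets the call of Slc25a11 was lost without 0 ppm library a (adjusted p = 0.0914), and that of Slc25a10 without any 1 of libraries a and c of 0 ppm, b and c of 0.1 ppm, b and c of 0.4 ppm and b of 2.25 ppm (up to 0.169). Slc25a1, the citrate carrier, had 0.05 (interval -0.13 to 0.23, adjusted p = 0.82), and Slc25a21, an oxodicarboxylate carrier, had 0.08 (adjusted p = 0.736).

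Of the 4 aspartate and glutamate carriers, 1 was lower at 0 ppm and another at 0.4 and 2.25 ppm. Slc25a13, known as citrin, exports aspartate from liver mitochondria for the malate-aspartate shuttle and the urea cycle (chr6:6041218-6217173, minus strand). Its liver values were 4159, 4495 and 4550.1 normalized reads at 0 ppm, 6112, 6775 and 7185 at 0.1 ppm, 5991, 5902 and 5791 at 0.4 ppm and 6215, 6067 and 5560.2 at 2.25 ppm. The 3 libraries at 0 ppm were the lowest, below a minimum of 5560 elsewhere. The log2 change was -0.49 ± 0.06 SE against the supplemented diets (adjusted p = 0.000496 by limma), the smallest adjusted p of the family, and -0.60 ± 0.08 SE against 0.1 ppm (adjusted p = 0.000563). Both passed in all 12 fits without 1 library. Slc25a22, a glutamate carrier, was instead low at the upper doses (chr7:141429744-141437892, minus strand). It had 5065, 4096 and 3092 normalized reads at 0 ppm, 4779, 5155 and 4949.5 at 0.1 ppm, 3121, 3275 and 2842 at 0.4 ppm and 2489, 2889.9 and 2150.0 at 2.25 ppm. The 2.25 ppm libraries were below those of 0 and 0.1 ppm and overlapped those of 0.4 ppm, the 0.1 ppm libraries lay within 4779 to 5155, and the 0 ppm libraries spread from 3092 to 5065. Between 2.25 and 0.1 ppm it fell 1.99-fold (log2 change -0.99 ± 0.14 SE, adjusted p = 0.00126, 12 of 12 fits). At 0.4 ppm against 0.1 ppm the log2 change was -0.69 (adjusted p = 0.0343), lost without any 1 of the 6 libraries of those diets (up to 0.141). Slc25a12, the aspartate carrier known as aralar, had -0.21 at 0 ppm against the supplemented diets (adjusted p = 0.177), and the glutamate carrier Slc25a18 had 0 to 12.6 normalized reads in liver, close to the floor.

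The carriers of adenine nucleotides and phosphate hold the most abundant member in liver, Slc25a5, the exchanger of ADP for ATP known as ANT2. It had 7802, 9277 and 7288 normalized reads at 0 ppm, 8935, 10647 and 10184 at 0.1 ppm, 9998, 10297 and 10570.2 at 0.4 ppm and 10432, 11081 and 10749.9 at 2.25 ppm. The 0 ppm libraries a and c were the lowest, and 0 ppm b overlapped the 0.1 ppm group. Against the supplemented diets it was lower by a small amount (log2 change -0.35 ± 0.08 SE, adjusted p = 0.0142 by limma), but not without library a or c of 0 ppm (adjusted p up to 0.0863). Slc25a23, a calcium-regulated carrier of ATP-Mg for phosphate, was higher at 2.25 ppm against 0.1 ppm (log2 change 0.28 ± 0.06 SE, adjusted p = 0.0161), lost without 0.1 ppm b or 2.25 ppm b or c (up to 0.0606). Slc25a3, the phosphate carrier, had -0.15 at 0 ppm (adjusted p = 0.183), and Slc25a4 and Slc25a24 did not pass in any liver comparison. Slc25a25, a relative of Slc25a23, varied widely over the livers, with a coefficient of variation of 62.6%, against 86.5% for Slc25a30 and 69.1% for Slc25a18, which averaged 5.24 normalized reads in liver. It had 5208, 2967 and 5025 normalized reads at 0 ppm, 10573, 4933 and 3823 at 0.1 ppm, 2160.2, 2265 and 2012 at 0.4 ppm and 1728, 5849 and 1994 at 2.25 ppm, and no contrast passed (smallest adjusted p = 0.1 among the contrasts, at 0.4 ppm against 0.1 ppm).

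Of the 9 carriers of other nucleotides and cofactors, 2 were higher and 1 lower at 0 ppm against the supplemented diets. Slc25a17, the peroxisomal carrier of coenzyme A, FAD and NAD, had 1570.0, 1707 and 1400.4 normalized reads at 0 ppm, 1503, 1409 and 1329 at 0.1 ppm, 1184, 1073 and 1199.8 at 0.4 ppm and 1197, 1088 and 1056 at 2.25 ppm. The 0.4 and 2.25 ppm libraries were all below those of 0 and 0.1 ppm, which overlapped each other. Slc25a42, a mitochondrial coenzyme A carrier, had 2892, 2783 and 2259 normalized reads at 0 ppm, 2162, 2019.7 and 2198 at 0.1 ppm, 1937, 2026 and 2044 at 0.4 ppm and 2093, 2180.3 and 2319.5 at 2.25 ppm. Its 0 ppm libraries a and b were above all others, and 0 ppm c lay inside the range of the other diets. Both were higher at 0 ppm against the supplemented diets, Slc25a17 with log2 change 0.35 ± 0.07 SE, adjusted p = 0.00925 and Slc25a42 with log2 change 0.32 ± 0.07 SE, adjusted p = 0.0162 by limma. Both calls were lost without 0 ppm library a or b (adjusted p up to 0.0549 for Slc25a17 and 0.125 for Slc25a42). Slc25a17 was lower at 2.25 ppm against 0.1 ppm (log2 change -0.34 ± 0.09 SE, adjusted p = 0.0278, lost without 0.1 ppm a or b or 2.25 ppm b or c, up to 0.108).

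In the same group, Slc25a51, the mitochondrial NAD carrier, and Slc25a33, a pyrimidine nucleotide carrier, were highest at 0.1 ppm. Slc25a51 had 1969, 2143 and 1414 normalized reads at 0 ppm, 3041, 3251 and 3596 at 0.1 ppm, 2314, 2276 and 1775 at 0.4 ppm and 1665, 2024 and 1563 at 2.25 ppm (chr4:45395923-45408766, minus strand). The 0.1 ppm libraries were above all 9 others, which overlapped. Slc25a33 had 313, 339 and 213 normalized reads at 0 ppm, 373, 361 and 377 at 0.1 ppm, 212, 234 and 251 at 0.4 ppm and 162, 211 and 198 at 2.25 ppm (chr4:149744036-149774277, minus strand, 281 exon bases shared with Gm13068 on the other strand). Its 0.1 ppm libraries were also above all others, with 0 ppm b the nearest. At 2.25 ppm against 0.1 ppm Slc25a33 was 1.95-fold lower (log2 change -0.96 ± 0.16 SE, adjusted p = 0.00243 by limma) and Slc25a51 1.89-fold lower (log2 change -0.92 ± 0.15 SE, adjusted p = 0.00245), both in 12 of 12 fits without 1 library. At 0.4 ppm against 0.1 ppm the log2 changes were -0.67 for Slc25a33 and -0.64 for Slc25a51 (adjusted p = 0.0493 for each), which held in 2 and 3 of the 12 fits (up to 0.153 and 0.194). At 0 ppm against 0.1 ppm Slc25a51 was lower (log2 change -0.86 ± 0.15 SE, adjusted p = 0.00427, 12 of 12 fits), and Slc25a33 had -0.39 (adjusted p = 0.18).

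Slc25a32, a folate and FAD carrier, had 91.5, 93.8 and 67.3 normalized reads at 0 ppm, 145, 161 and 142 at 0.1 ppm, 95.6, 115 and 96.3 at 0.4 ppm and 79.6, 115 and 58.5 at 2.25 ppm. All 3 libraries of 0.1 ppm were above the rest. It was lower at 0 ppm against 0.1 ppm (log2 change -0.83 ± 0.22 SE, adjusted p = 0.0358) and at 2.25 ppm against 0.1 ppm (log2 change -0.87 ± 0.22 SE, adjusted p = 0.0255), calls kept in 6 and 7 of 12 fits without 1 library (adjusted p up to 0.129 and 0.103). Slc25a16 was lower at 0 ppm against the supplemented diets (log2 change -0.22, adjusted p = 0.0407, kept in 3 of 12 fits, up to 0.18) and against 0.1 ppm (log2 change -0.28, adjusted p = 0.036, kept in 7, up to 0.133). Slc25a26, the S-adenosylmethionine carrier, and Slc25a36, another pyrimidine nucleotide carrier, passed in no liver comparison.

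Of the 8 carriers of amino acids, acylcarnitines and related substrates, 3 were lower and 0 higher at 0 ppm against the supplemented diets. Slc25a48, a carrier that in human cells takes choline into mitochondria, had 186, 233 and 233 normalized reads at 0 ppm, 399.9, 394 and 358 at 0.1 ppm, 338, 335 and 306 at 0.4 ppm and 283, 275 and 228 at 2.25 ppm (chr13:56438355-56474239, plus strand). The 0 ppm libraries were the lowest, apart from 2.25 ppm c, which lay among them at 228, and the 0.1 ppm libraries were the highest. The log2 change was -0.56 ± 0.10 SE against the supplemented diets (adjusted p = 0.00312 by limma) and -0.82 ± 0.12 SE against 0.1 ppm (adjusted p = 0.00112), both in 12 of 12 fits without 1 library. It was also lower at 2.25 ppm against 0.1 ppm (log2 change -0.55 ± 0.12 SE, adjusted p = 0.0107), though not without b of 0.1 ppm or c of 2.25 ppm (up to 0.0513).

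Slc25a15, the ornithine carrier of the urea cycle, had 7228, 6659 and 5863 normalized reads at 0 ppm, 8477, 8481 and 10151 at 0.1 ppm, 8150.0, 7905 and 9213 at 0.4 ppm and 8227, 8303 and 6729 at 2.25 ppm. Library a at 0 ppm overlapped the supplemented diets through 2.25 ppm c, and the 0.1 ppm libraries were all above those of 0 ppm. Its log2 change was -0.35 against the supplemented diets (adjusted p = 0.0329, kept in 5 of 12 fits without 1 library, up to 0.119) and -0.46 ± 0.11 SE against 0.1 ppm (adjusted p = 0.0248, lost without library c of 0 ppm or b or c of 0.1 ppm, up to 0.114). Slc25a20, which brings acylcarnitines in for fatty acid oxidation, was lower against the supplemented diets (log2 change -0.29, adjusted p = 0.0275) and against 0.1 ppm (log2 change -0.34, adjusted p = 0.0343), each kept in 7 of 12 fits (up to 0.135 and 0.134). Slc25a45 was higher at 0 ppm against 0.1 ppm. It had 872, 595 and 849 normalized reads at 0 ppm, 466, 561 and 390.1 at 0.1 ppm, 608, 583 and 671 at 0.4 ppm and 485, 690.1 and 635 at 2.25 ppm. The 0 ppm libraries were above those of 0.1 ppm and overlapped those of 0.4 and 2.25 ppm (log2 change 0.70 ± 0.17 SE, adjusted p = 0.023 by limma, lost without 0 ppm a or c or 0.1 ppm a or c, up to 0.106). Against the mean of the supplemented diets Slc25a45 had 0.45 (adjusted p = 0.065).

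Slc25a44, which carries branched-chain amino acids into mitochondria, rose at the highest dose. It had 1595, 1567 and 1285 normalized reads at 0 ppm, 1216, 1355 and 1461 at 0.1 ppm, 1602, 1905 and 1613 at 0.4 ppm and 2177, 2072 and 2043 at 2.25 ppm (chr3:88410498-88425139, minus strand). The 2.25 ppm libraries were above all others, the 0.4 ppm libraries came next, and those of 0 and 0.1 ppm overlapped. The rise over 0.1 ppm was 1.56-fold (log2 change 0.65 ± 0.10 SE, adjusted p = 0.00179 by limma, 12 of 12 fits without 1 library). Slc25a29, a carrier of basic amino acids, had -0.60 at 0 ppm against the supplemented diets (interval -1.08 to -0.13, adjusted p = 0.133). Slc25a47 had -0.28 (adjusted p = 0.342) and Slc25a38, the glycine carrier used in heme synthesis, -0.20 (adjusted p = 0.175).

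**Figure D3:**
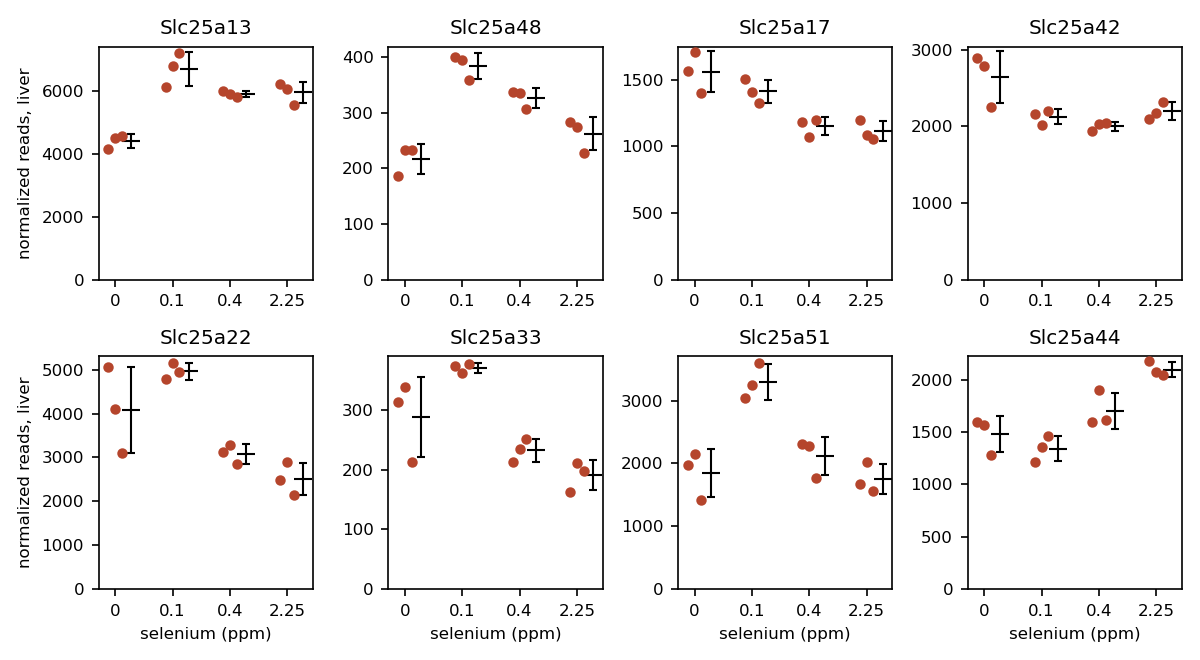
Liver levels of 8 members in normalized reads (y axes, each from 0) by dietary selenium in ppm (x axes). Points are libraries and bars the mean ± SD of 3. Slc25a13 and Slc25a48 are lowest at 0 ppm, Slc25a22, Slc25a33 and Slc25a51 highest on average at 0.1 ppm, and Slc25a44 highest at 2.25 ppm.

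None of the 4 metal and glutathione carriers passed in any liver comparison. These are the mitoferrins Slc25a37 and Slc25a28, which bring iron into mitochondria, and Slc25a39 and its relative Slc25a40, which serve the import of glutathione. Slc25a39 was the nearest to the threshold at 0 ppm against the supplemented diets (log2 change -0.20 ± 0.06 SE, adjusted p = 0.0532, interval -0.32 to -0.08). The outer-membrane protein Slc25a46 and Slc25a53 passed in none either. A p that misses the threshold does not show that these levels were equal.

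Of the 14 members called for any difference among the diets, the diet with the highest mean was 0 ppm for 3 (21.4%), 0.1 ppm for 8 (57.1%), 0.4 ppm for 0 and 2.25 ppm for 3 (21.4%). Over all 2056 genes called in that test the shares were 19.8%, 35.6%, 9.05% and 35.6%. The lowest mean was at 0 ppm for 6 of the 14 (42.9%), at 0.1 ppm for 2 (14.3%), at 0.4 ppm for 1 (7.14%) and at 2.25 ppm for 5 (35.7%), against 38.9%, 26.8%, 11.4% and 23% of all genes called. The distance between the highest and the lowest group mean was 4.97-fold for Slc25a30, and for the other 13 members it ran from 1.21-fold for Slc25a23 to 1.98-fold for Slc25a22.

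Genes that work with the carriers were read beside them in liver, as a list of 19. At 0 ppm against the supplemented diets 0 were higher and 5 lower (list median -0.20, all genes 0.00), where 2.2% of all genes were higher and 4.41% lower. Of these, 4 belong to the urea cycle that Slc25a13 and Slc25a15 feed, namely Asl (log2 change -1.43), Cps1 (-0.89), Ass1 (-0.86) and Arg1 (-0.57). The fifth was Got1 (-1.37), the cytosolic aspartate aminotransferase of the malate-aspartate shuttle. Otc, the other urea cycle gene listed, did not pass. At 0 ppm against 0.1 ppm, 1 of the 19 was higher and 7 lower, where 1.82% of all genes were higher and 4.31% lower. At 2.25 ppm against 0.1 ppm, 1 of the 19 was higher and 2 lower, where 4.23% of all genes were higher and 3.62% lower. Acly, which cleaves the citrate exported by Slc25a1, was higher (0.91), while Got1 (-1.26) and Cpt1a (-0.84), the enzyme that makes acylcarnitines, were lower. Of the family members under other symbols, Ucp2, an uncoupling protein, had -0.14 at 0 ppm against the supplemented diets (adjusted p = 0.43 by limma).

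Other signals moved with diet in the same livers. Of 5 clock genes (Dbp, Ciart, Arntl, Nr1d1 and Per2), 4 passed at 2.25 ppm against 0.1 ppm, with Arntl higher (log2 change 3.06) and Dbp (-2.99), Ciart (-2.79) and Nr1d1 (-2.06) lower. In that contrast 7.85% of all genes passed. At 0 ppm against the supplemented diets Nr1d1 was higher (1.96), and Ciart (-2.01) and Per2 (-1.36) were lower. Dbp had 428, 463 and 1672 normalized reads in 0 ppm libraries a, b and c, so library c stood apart. The 5 genes summed to 2139 to 4061 normalized reads at 0 ppm, 3344 to 4223 at 0.1 ppm, 2443 to 3599 at 0.4 ppm and 2288 to 3048 at 2.25 ppm, with none of them at 0. No label states when tissue was collected or mice had fed, and the part of timing in the carriers' differences was not tested. The 5 hepatocyte markers (Alb, Apoa1, Serpina1a, Cyp2e1 and Tat) summed to 1079630 to 1351590 normalized reads at 0 ppm, 1514250 to 1876890 at 0.1 ppm, 1422770 to 1543830 at 0.4 ppm and 1570290 to 1822720 at 2.25 ppm, with none at 0. Of these, Cyp2e1 (-0.66) and Tat (-1.64) were lower at 0 ppm against 0.1 ppm. Among markers of other cell types, 1 of 3 endothelial genes, Flt1, was lower at 0 ppm against the supplemented diets (-0.64), and the 3 genes summed to 957 to 1127 normalized reads at 0 ppm, 1099 to 1409 at 0.1 ppm, 1229 to 1323 at 0.4 ppm and 1072 to 1379 at 2.25 ppm. The part of these in the carriers' differences was not tested.

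No member passed in brain by limma, where 0 of 42 were called at 0 ppm against the supplemented diets (0.0189% of all genes), at 0 ppm against 0.1 ppm (0.0284%), at 0.4 ppm against 0.1 ppm (0.00947%), at 2.25 ppm against 0.1 ppm (0.435%) and for any difference among the 4 diets (0.0189%). At an unadjusted p under 0.05 the numbers were 4, 1, 4, 8 and 5 of 42, while 5.55%, 6.95%, 8.08%, 13% and 9.46% of all genes reached it. edgeR also called 0 in each, and DESeq2 called 0 except for 1, Slc25a42 (log2 change 0.40, adjusted p = 0.0253), at 2.25 ppm against 0.1 ppm. Without both brain libraries high in pituitary genes, limma called 0 in each as well. By limma the member nearest the threshold was Slc25a42, the coenzyme A carrier, at 2.25 ppm against 0.1 ppm (log2 change 0.40 ± 0.10 SE, adjusted p = 0.0924). Its brain values were 392, 460.3 and 467 normalized reads at 0 ppm, 443, 359 and 426 at 0.1 ppm, 513, 441 and 500.0 at 0.4 ppm and 577, 536 and 507 at 2.25 ppm. The 2.25 ppm libraries were above those of 0.1 ppm, and 2.25 ppm c overlapped the 0.4 ppm group. Its lowest value was in 0.1 ppm b, and without both pituitary-high libraries the log2 change was 0.31 ± 0.09 SE (adjusted p = 0.157). Slc25a13 had 52.4, 37.7 and 51.0 normalized reads at 0 ppm, 50.1, 57.9 and 50.5 at 0.1 ppm, 93.5, 73.7 and 64.8 at 0.4 ppm and 56.4, 57.1 and 45.3 at 2.25 ppm. Its 0.4 ppm libraries were above all others (log2 change 0.53 ± 0.17 SE, adjusted p = 0.478 at 0.4 ppm against 0.1 ppm), and at 0 ppm against the supplemented diets it had -0.35 (adjusted p = 0.878), with Slc25a29 at -0.24 and the same adjusted p. At 0 ppm against 0.1 ppm the smallest adjusted p was that of Slc25a34 (log2 change -0.37 ± 0.15 SE, adjusted p = 0.646).

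Slc25a30 in brain had 74.5, 67.8 and 56.9 normalized reads at 0 ppm, 72.1, 84.7 and 64.5 at 0.1 ppm, 61.3, 65.3 and 53.9 at 0.4 ppm and 73.7, 67.0 and 54.6 at 2.25 ppm. The 4 groups overlapped, and the log2 change at 0 ppm against the supplemented diets was 0.01 (interval -0.27 to 0.28, adjusted p = 0.998). The difference between its change in liver and its change in brain was 2.02 ± 0.38 SE (adjusted p = 0.00654 by limma over the 24 libraries), in 24 of 24 fits without 1 library. For this tissue difference of the 0 ppm contrast 4 members passed (9.52%; 3 higher and 1 lower in liver), against 1.98% of all genes (0.594% higher, 1.38% lower). The other 3 were Slc25a17 (log2 change 0.39 ± 0.09 SE, adjusted p = 0.0214), Slc25a42 (log2 change 0.43 ± 0.11 SE, adjusted p = 0.0446) and Slc25a5 (log2 change -0.40 ± 0.08 SE, adjusted p = 0.0154). Without 1 library, Slc25a5 was lost without brain 0 ppm a or c or liver 0 ppm a (up to 0.0562), Slc25a17 without brain 0 ppm a, b or c or liver 0 ppm a or b (up to 0.0755), and Slc25a42 was kept in 6 of 24 fits (up to 0.171). Without both pituitary-high brain libraries Slc25a30 still passed, at 2.07 (adjusted p = 0.0274), and Slc25a17 (0.40, adjusted p = 0.0665), Slc25a5 (-0.39, adjusted p = 0.0667) and Slc25a42 (0.38, adjusted p = 0.0986) did not. For 2.25 ppm against 0.1 ppm another 4 passed (9.52%; 1 higher, 3 lower), against 2.69% of all genes (1.3% higher, 1.39% lower), all in 24 of 24 fits and without both of those brain libraries (adjusted p up to 0.0337), namely Slc25a44 (log2 change 0.56 ± 0.12 SE, adjusted p = 0.0108), Slc25a51 (log2 change -1.03 ± 0.18 SE, adjusted p = 0.0029), Slc25a33 (log2 change -0.97 ± 0.19 SE, adjusted p = 0.00824) and Slc25a22 (log2 change -0.92 ± 0.18 SE, adjusted p = 0.0082). Slc25a13 and Slc25a48, which fell in liver at 0 ppm, gave tissue differences of -0.13 (adjusted p = 0.77) and -0.15 (adjusted p = 0.945), and Slc25a48 had at most 6.57 normalized reads in a brain library.

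**Figure D4:**
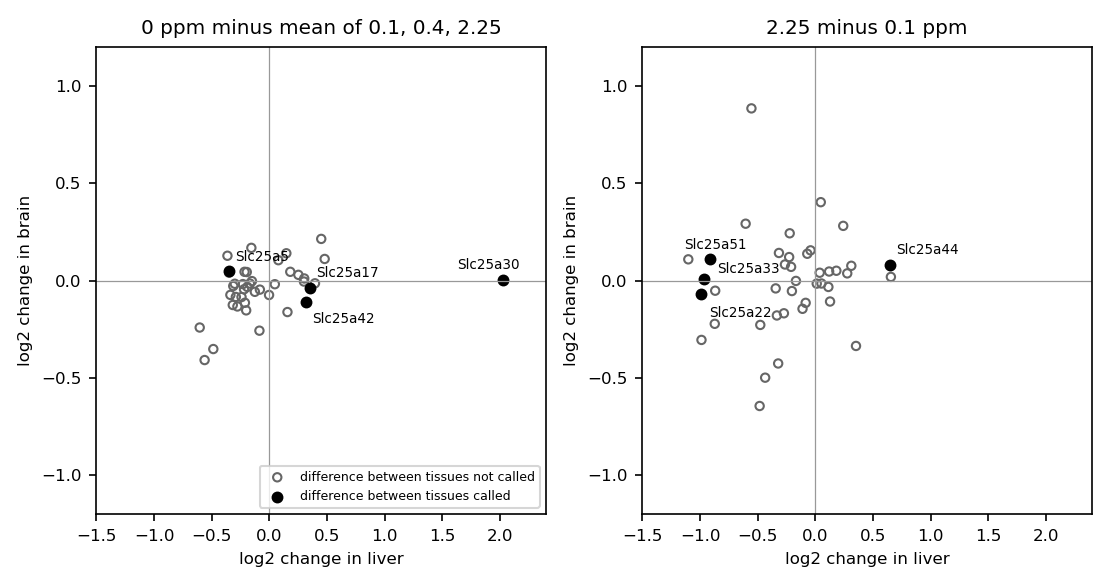
Log2 change in liver (x axis) and in brain (y axis) of 41 members for 0 ppm against the supplemented mean (left) and 2.25 ppm against 0.1 ppm (right). Filled points are members whose change differed between the tissues at an adjusted p under 0.05, 4 in each panel. Slc25a30 lies at 2.03 in liver and 0.01 in brain.

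Between the tissues, 39 of 42 members differed (92.9%, 26 higher and 13 lower in liver), close to the background of 91.2% of all genes (35.7% higher, 55.6% lower). The median difference was 0.79 on the log2 scale for the members and -0.54 for all genes, and the values depend on how liver and brain are scaled to each other. With each library scaled to its own total, 18 members were higher and 22 lower in liver, while 76.2% of all genes called were lower, and 8 members changed sign (Slc25a3, Slc25a11, Slc25a22, Slc25a23, Slc25a24, Slc25a28, Slc25a34 and Slc25a44), none of which differed by more than 0.80 as deposited. The 4 largest differences in each direction kept their sign under each scaling. The strongest on the liver side was Slc25a47, a carrier known for its restriction to liver, with 6118 at the lowest, 9895 at the median and 14059.6 at the highest of 12 liver libraries, against 16.9, 23.3 and 31.4 in brain (log2 difference 8.59). Slc25a13 had 4159 at the lowest, 5947 at the median and 7185 at the highest of 12 liver libraries, against 37.7, 54.4 and 93.5 in brain (6.63). Slc25a48 had 186 at the lowest, 295 at the median and 399.9 at the highest of 12 liver libraries, against 0, 4.12 and 6.57 in brain (6.12, brain near the floor). The ranges were far apart in each of the 3. Slc25a48, with a brain mean of 3.74, was the member that met the minimum in liver only. The rule that chose it thus favoured its direction, and it is among the 26 higher in liver. Slc25a15 had 5863 at the lowest, 8189 at the median and 10151 at the highest of 12 liver libraries, against 147, 173 and 190.1 in brain (5.52).

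On the brain side, Slc25a18, the glutamate carrier known from astrocytes, had 0 at the lowest, 4.36 at the median and 12.6 at the highest of 12 liver libraries, against 564, 608 and 735 in brain (log2 difference -6.91, liver near the floor). Slc25a4, the ADP and ATP exchanger ANT1 of muscle and brain, had 108 at the lowest, 135 at the median and 155 at the highest of 12 liver libraries, against 5696, 6004 and 6374 in brain (-5.50). Slc25a27 had 12.5 at the lowest, 21.4 at the median and 46.9 at the highest of 12 liver libraries, against 565, 644 and 719 in brain (-4.87), and Slc25a14 had 25.3 at the lowest, 36.7 at the median and 56.3 at the highest of 12 liver libraries, against 343, 396 and 449 in brain (-3.38). Again no liver library reached a brain library. Paralogs of a role could differ in opposite directions between the tissues. Of the aspartate carriers, Slc25a13 was higher in liver and Slc25a12 lower (-2.05). Of the exchangers of ADP and ATP, Slc25a5 was higher in liver (2.09) and Slc25a4 lower. Of the glutamate carriers, Slc25a18 was lower in liver, and Slc25a22 had 0.80 as deposited and -0.13 with total scaling. The 3 members that did not pass were Slc25a24, Slc25a26 and Slc25a34. Slc25a47 and Slc25a29 are neighbours on chromosome 12, transcribed away from each other with 162 bases between them, and differed by 8.59 and -1.57.

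Per kilobase of exon, Slc25a5 was the most abundant member in liver at 5937 normalized reads per kb (4428 to 6732 over the 12 libraries), followed by Slc25a47 at 3257 (2050 to 4710), Slc25a39 at 2840 (2519 to 3169), Slc25a1 at 1634, Slc25a13 at 1510 and Slc25a15 at 1412. The ranges of Slc25a5 and Slc25a47 overlapped, as did those of Slc25a47 and Slc25a39, so these neighbours are not separated beyond their spread, nor are Slc25a1, Slc25a13 and Slc25a15. In brain the order began with Slc25a4 at 2545 (2421 to 2709), Slc25a5 at 1381 (1294 to 1456) and Slc25a3 at 737 (701 to 769.7), with no overlap among these 3. Slc25a23 came next at 678 (617 to 727), a range that overlapped that of Slc25a3. The top 3 members made up 46.7% of the family's level per kb in liver and 49.7% in brain. Exon length here joins every annotated exon of a gene, which can be longer than the transcripts present. It was 5550 bases for Slc25a3 (1074 coding) and 1646 for Slc25a5 (894 coding). The order and these shares therefore depend on the length used. All members together took 0.444% of normalized reads in liver and 0.318% in brain. One named pseudogene of Slc25a5 is annotated, and reads of near-identical copies may have been split.

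**Figure D5:**
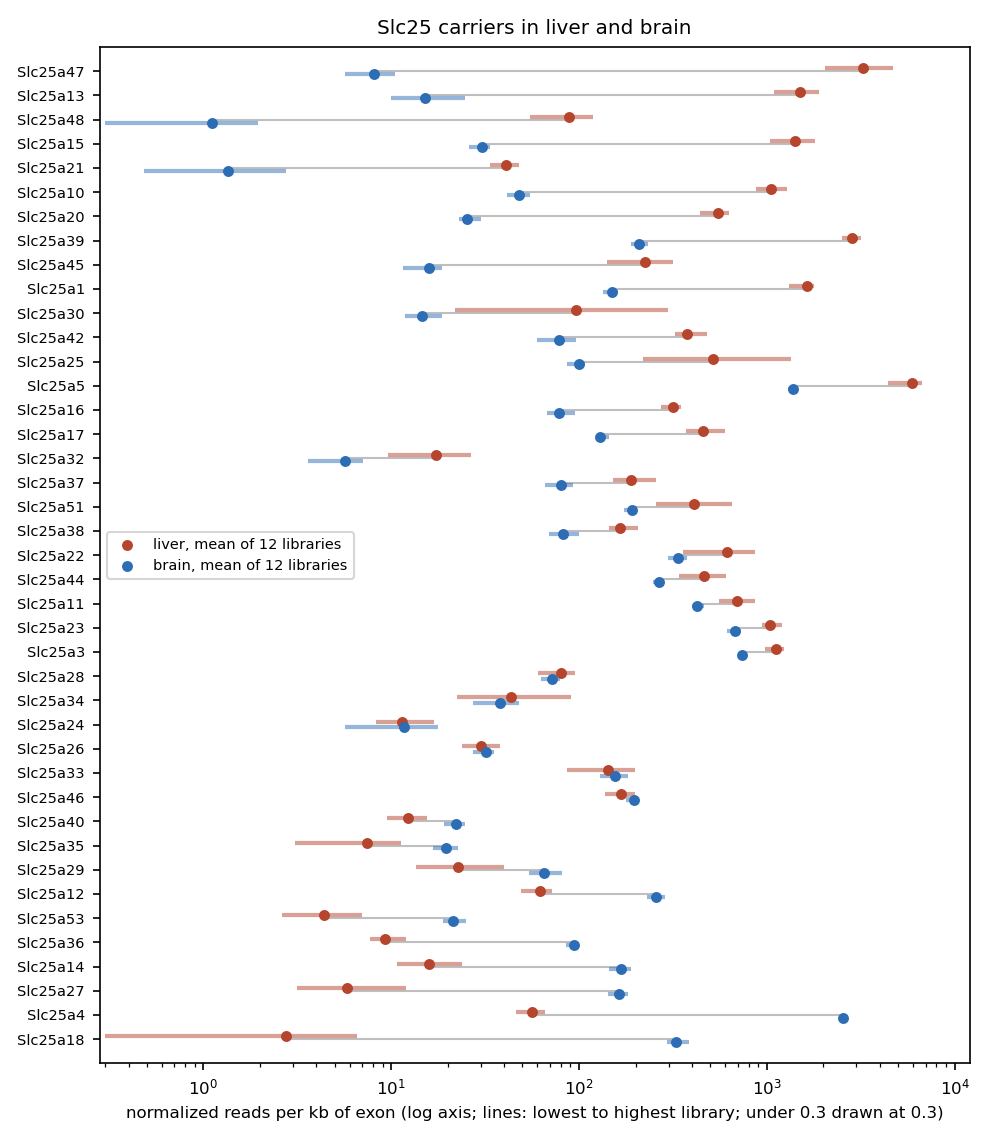
Mean level of 41 members in liver and brain in normalized reads per kb of exon (log axis), ordered by the log2 difference of liver minus brain. Lines run from the lowest to the highest of 12 libraries, and values under 0.3 are drawn at 0.3. Slc25a47 is at the liver end and Slc25a18 at the brain end.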

How the data were processed

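The deposited table holds a signal per gene and library that the authors made by dividing gene reads by a single factor for each library. Multiplied back, 525456 of 525456 values (100%) lay within 0.01 of a whole read. The submitters' processing notes list, with no role for each, RSEM 1.3.0, STAR 2.5.2b, limma 3.34.5, Trimmomatic 0.33, bcl2fastq 2.17 and the genome build mm10. Depth on genes ranged over 11.5 to 18.4 M (liver) and 12.9 to 17.8 M (brain) reads per library. Libraries of the same group were compared in 24 pairs over genes with at least 20 reads, and the chi-square per gene was 4.01 to 56.5, above sampling noise, so none was treated as a library deposited again. The check does not show whether libraries are biological replicates.

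Diets were compared per tissue, and tissues over all 24 libraries, by limma (version 3.58.1, under R 4.3.3) using log2(value + 1) and a mean-variance trend, for genes that reached 1 in 3 or more of the libraries fitted. Fold changes are on that scale, which understates changes of low genes. P-values were adjusted by Benjamini-Hochberg across every gene in the fit, and 0.05 was the threshold. Alternatives were edgeR 4.0.16 and DESeq2 1.42.0 on the recovered reads, other filters, pseudocounts, scalings and variance models, each library left out and, chosen after seeing the data, a pair of brain libraries left out. Of these tests, limma's contrast of 0 ppm against the supplemented diets was tried on simulated data in each tissue, without the filter on low values. How the other tests fare on simulated data is not given here.

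The members and gene lists were chosen with earlier results of these data known. Values of each library were to be given for Slc25a30, for up to 12 liver members that passed with the largest changes, for the 4 largest tissue differences each way and, in brain, for members with the smallest p. Values of Slc25a5, Slc25a10, Slc25a11, Slc25a17, Slc25a25 and Slc25a42 in liver were added after they were seen. One member is included in the counts but is neither described nor drawn and is not reported here. Gene positions are from GENCODE M21 on GRCm38, which matched 21821 of 21894 identifiers. Metabolite and microRNA profiles, the authors' sheets of p-values and their gene lists were not used here.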

Additional observations from a re-analysis of the deposited data

Results flagged for a closer look

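The effect of diet differed between liver and brain for 8 members, by limma's test of the difference itself over the 24 libraries. These were 9.52% of the members in each contrast. Of all genes 1.98% passed for 0 ppm against the supplemented mean and 2.69% for 2.25 ppm against 0.1 ppm. For 0 ppm against the supplemented mean, the change in liver minus the change in brain was 2.02 on the log2 scale for Slc25a30 (adjusted p = 0.00654), 0.43 for Slc25a42 (0.0446), 0.39 for Slc25a17 (0.0214) and -0.40 for Slc25a5 (0.0154). That of Slc25a30 passed in 24 of 24 fits without 1 library, but Slc25a30 was singled out for its liver change in these data. Slc25a5 passed in 21 (lost without brain 0 ppm a or c or liver 0 ppm a, adjusted p up to 0.0562). Slc25a17 passed in 19 (lost without brain 0 ppm a, b or c or liver 0 ppm a or b, up to 0.0755), and Slc25a42 in 6 (up to 0.171). For 2.25 ppm against 0.1 ppm the difference was -0.92 for Slc25a22 (adjusted p = 0.0082), -0.97 for Slc25a33 (0.00824), 0.56 for Slc25a44 (0.0108) and -1.03 for Slc25a51 (0.0029), each in 24 of 24 fits. Brain libraries 0 ppm a and 0.1 ppm b were high in pituitary genes, and without both of them the differences of Slc25a5, Slc25a17 and Slc25a42 no longer passed (adjusted p = 0.0667, 0.0665 and 0.0986), while the other 5 did. In liver, 4 of 5 clock genes also passed in the 2.25 ppm contrast, where 7.85% of all genes passed, and their part was not tested.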

How the results depend on the processing

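Of 42 changes of single members named above, 0 reversed under any alternative. Over all alternatives and fits without 1 library, 805 of 1009 values stayed past the threshold and 204 lost it. Calls kept were 42 of 42 with DESeq2 and with a minimum of 4, 41 with edgeR and with robust moderation, 38 with a pseudocount of 0.1, 35 with quantile normalization, 32 with total scaling, 29 with no filter, 16 with no mean-variance trend and 15 of 23 with only the libraries of the diets compared.

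Counts of members called moved as follows. With no filter on low values, 6 passed in liver at 0 ppm against 0.1 ppm, 0 at 0.4 ppm and 6 at 2.25 ppm against 0.1 ppm. All genes called fell there too, from 1161 to 646, from 282 to 103 and from 1487 to 1049. With no mean-variance trend, 3 passed at 0 ppm against the supplemented diets, 3 at 0 ppm, 0 at 0.4 ppm and 5 at 2.25 ppm against 0.1 ppm, 3 in the F test and 1 in the tissue difference of the 0 ppm contrast. All genes called also fell, in these diet contrasts from 1252 to 488, 1161 to 404, 282 to 41 and 1487 to 751. In that tissue difference they fell from 433 to 256. At 0.4 ppm against 0.1 ppm, a pseudocount of 0.1 gave 1, quantile normalization 1 and only the libraries compared 5, which also gave 5 at 0 ppm against 0.1 ppm. All genes called at 0.4 ppm against 0.1 ppm fell less, from 282 to 255 with that pseudocount and to 238 with quantile normalization. With only the libraries compared, counts over all genes are not given here. DESeq2 gave 23 in the liver F test, 1 in brain at 2.25 ppm against 0.1 ppm and 7 in the tissue difference of that contrast. Over all genes DESeq2 called 330, against 92 by limma, in that brain contrast and 819, against 589, in the tissue difference. For the liver F test, counts over all genes with DESeq2 and without the mean-variance trend are not given here. The cause of these shifts was not tested.

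Leaving out 1 library gave 4 to 12 members in liver at 0 ppm against the supplemented diets, 6 to 13 at 0 ppm, 0 to 4 at 0.4 ppm and 4 to 10 at 2.25 ppm against 0.1 ppm, and 8 to 15 in the F test. It gave 0 in each brain comparison and 37 to 39 between the tissues. Counts over all genes in the fits without 1 library are not given here. Without both brain libraries high in pituitary genes, an alternative chosen after seeing the data, 1 member passed in the tissue difference of the 0 ppm contrast. The tissue difference gave 1 to 6 for the 0 ppm contrast (1 without brain 0 ppm a, brain 0 ppm c or liver 0 ppm a, 2 without brain 0 ppm b or liver 0 ppm b, 6 without liver 2.25 ppm c) and 4 to 5 for 2.25 ppm against 0.1 ppm. No paired analysis was possible because the columns carry no replicate numbers and nothing links the brain and liver of an animal. With 3 libraries per group, small changes may have gone uncalled, and levels under about 5 normalized reads in liver are close to what 3 reads give.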

Other observations

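In the liver libraries, a few genes listed as markers of brain cells also passed the test by limma. Aldh1l1, a folate enzyme listed for astrocytes that liver also expresses, was lower at 0 ppm against the supplemented diets (log2 change -0.43). At 2.25 ppm against 0.1 ppm Syt1, listed for neurons, was lower (-1.39), as was Aqp4, listed for astrocytes (-0.84). Against 0.1 ppm, 1 of 4 neuron and 1 of 3 astrocyte genes were also lower at 0 ppm, and 1 of 3 astrocyte genes at 0.4 ppm. Of all genes, 4.41% were lower at 0 ppm against the supplemented diets. Against 0.1 ppm the shares lower were 4.31% at 0 ppm, 0.94% at 0.4 ppm and 3.62% at 2.25 ppm. The 4 neuron genes together had 140 to 562 normalized reads in liver.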
